A study of Mus musculus with 147 samples.

Results

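The collagen genes of mouse renin cells were described here, taken as every gene symbol in the deposited tables made of Col, a type number, the letter a and a chain number, with nothing after. By this rule 44 of 35438 genes were collagen genes. By type number, 11 of them were fibrillar (types 1, 2, 3, 5, 11, 24 and 27), 6 were basement membrane chains (type 4), 6 were beaded filament chains (type 6) and 21 belonged to other types. Single YFP-positive cells sorted from mouse kidney were captured in the wells of a microfluidic chip and their polyadenylated RNA was sequenced. WT renin cells, with an intact renin gene (Ren1c+/+ Ren1c-YFP), filled 51 wells, and Renin-null cells, in which the renin gene was deleted (Ren1c-/- Ren1c-YFP), filled 96 wells in sequencing libraries named YFP1 and YFP2, of 48 wells each. All mice were adult C57BL/6 mice and carried the same Ren1c-YFP transgene, so both sorts rested on activity of the renin promoter and could hold any cell in which it was active. WT cells came from a single capture and Renin-null cells from several, and cells of several mice were pooled. No label ties a well to a mouse or a capture, so each genotype was treated as 1 sample. No test between genotypes was therefore possible, and the intervals of ratios below cover counting error only.

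Collagens are secreted matrix proteins whose alpha chains wind into helices, some of 1 chain and some of different partner chains. Fibrillar collagens form the tensile fibres of vessel walls and interstitium, type 4 collagen forms the sheet under epithelia and endothelium and around smooth muscle, and type 6 collagen forms fine filaments at the cell surface. In the glomerulus the mature sheet is built from the Col4a3, Col4a4 and Col4a5 chains made by podocytes, whereas Col4a1 and Col4a2 form the sheet of most other vessels and of the mesangium.

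The wells held 26401 to 17124854 counts in WT (median 1525972), 3628 to 14505243 in YFP1 (median 2474268) and 9102 to 11069338 in YFP2 (median 4989996). Ren1, the renin gene, had at least 538 counts in every WT well and at most 17 in any Renin-null well, with a count in 16 of the 96. The sorted cells carried the markers of vessel wall cells in all libraries. The 10 smooth muscle and pericyte markers summed to 22965 CPM (counts per 1000000 counts of the summed wells) in WT, 25367 in YFP1 and 27655 in YFP2, with Rgs5 the most abundant. Some wells stood apart. In 1 WT well, 4 YFP1 wells and 7 YFP2 wells the summed markers of podocytes, endothelium, a tubule segment or leukocytes were above those of smooth muscle and pericytes. Below, these wells are called led by markers of another cell type, although renin cell markers were not part of the comparison. The WT well, well 21, had 302 CPM of proximal tubule markers but 15509 CPM of Ren1. In well 7 of YFP1 the margin was small, at 60.3 CPM of proximal tubule markers against 37.6 CPM of smooth muscle and pericyte markers. In addition, 4 pairs of Renin-null wells were near copies of each other, with correlations of log2(CPM + 1) from 0.974 to 0.987 (wells 46 and 94, 45 and 93, 47 and 95, 48 and 96), whereas the closest pair of WT wells reached 0.717. Wells 41 and 42 (0.896) and 37 and 38 (0.853) of YFP1 were also closer than that. The pairs 46 and 94, 45 and 93, and 47 and 95 each join a YFP1 well to a YFP2 well, so these libraries may not be fully separate. Whether the same material was sequenced again was not tested. In 2 wells the index in the title differed from that in the description. The mitochondrial share of the counts had a median of 60.4% in WT wells and 12.4% in Renin-null wells. The 48 index pairs of YFP1 and those of YFP2 were all among the 51 of WT. In WT, the 6 collagen genes with at least 1000 counts in 1 well, and at least 80% of their counts there, were found in 63.2% of the wells sharing an index with that well and in 13.8% of the others, and for the 2266 such genes among all genes the shares were 59.7% and 13.8%. They were 26.8% and 22.0% for 4 collagen genes in YFP1 and 42.9% and 25.8% for 1 in YFP2. The 6 WT genes were Col4a5, Col4a6, Col5a2, Col6a3, Col8a1 and Col27a1, so their numbers of WT wells with a count carry this limit. Whether counts passed between wells was not tested.

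Collagen RNA was a larger part of the Renin-null libraries. All 44 genes together gave 1351 CPM over the WT wells and 4776 CPM over the Renin-null wells, 2845 in YFP1 and 6388 in YFP2. Since the ratio of Renin-null to WT had a median of 1.15 on the log2 scale over the 13596 genes that reached 1 CPM in either genotype, ratios are given below relative to that median gene. On this scale the summed collagen level was 0.67 log2 units above the median gene, 0.45 in YFP1 and 1.26 in YFP2. The genes did not move as 1 block. Of the 25 collagen genes that reached 1 CPM, 12 lay at least 2-fold above the median gene (48%, against a background of 38.1% of all genes tested), 5 lay at least 2-fold below it (20%, against 34.3%) and 8 lay between. Without centring on the median gene, 18 were at least 2-fold higher and 4 at least 2-fold lower, against 52.3% and 19.4% of all genes. By the difference of mean log2(CPM + 1) over wells, 9 were above and 0 below, against 7.87% and 3.96% of all genes. By the ratio of summed counts, centred on the median gene, the median of the 25 collagen genes was 0.95, and that of all genes is 0 by construction. When a gene had to pass the same 2-fold limit in YFP1 alone, in YFP2 alone and without its highest well in each genotype, 8 remained above (Col1a1, Col3a1, Col4a3, Col4a4, Col6a5, Col12a1, Col22a1 and Col26a1, 32% against 21.5% of all genes) and 2 remained below (Col4a5 and Col4a6, 8% against 17.7%). Single wells still weighed on this rule, since it leaves out only 1 well per genotype. In YFP1, well 45 held 49.9% of the Col4a4 counts (ratio 1.27) and well 13 held 56.4% of the Col6a5 counts (1.30). In YFP2, well 91 held 89.6% of the Col22a1 counts (1.22) and well 59 held 57.7% of the Col26a1 counts (1.20). Wells 45 and 93 are near copies across the libraries. Ratios of a single library without these wells were not computed. Without the 12 wells led by markers of another cell type, 12 collagen genes were above and 5 below among 24 genes tested (background 37.0% and 34.5%), and with each near-identical pair counted once 13 were above and 5 below among 25 (38.1% and 34.4%).

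**Figure D1:**
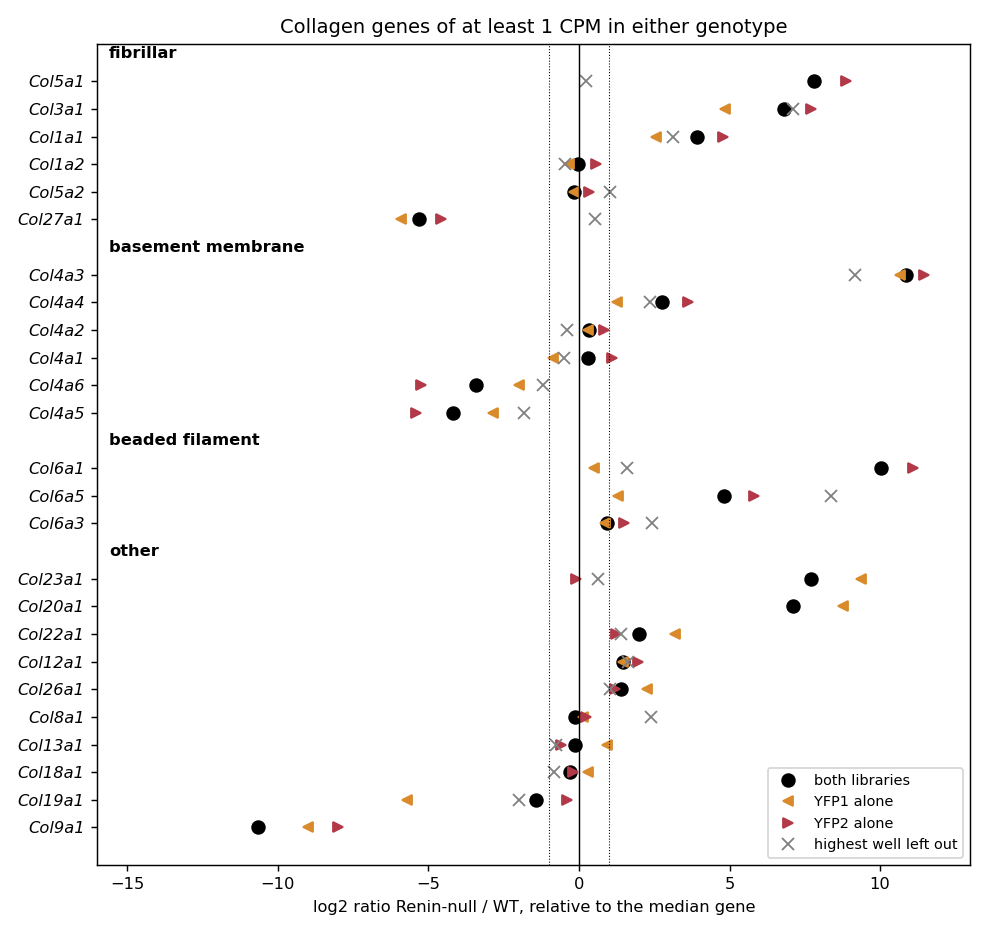
Log2 ratio of Renin-null to WT cells relative to the median gene (x axis) for the 25 collagen genes of at least 1 CPM, by class. Black circles show both libraries, triangles YFP1 or YFP2 alone and crosses the ratio without the highest well of each genotype; dotted lines mark 2-fold. Col4a3, Col3a1 and Col1a1 lie right of the line by every symbol, and without the highest wells Col5a1 falls to 0.24 and Col27a1 turns to 0.53.

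Among the fibrillar chains, Col3a1 and Col1a1 were higher in Renin-null cells, and Col1a2 was within 2-fold of the median gene by its summed counts. Of the 11 fibrillar genes, 6 reached 1 CPM, and 3 of these were at least 2-fold above and 1 at least 2-fold below the median gene (38.1% and 34.3% of all genes), with a median of 1.93. Col3a1, the only chain of type 3 collagen (chr1:45311538-45349706, plus strand, GRCm38), lay between 0 and 31.2 CPM in the WT wells, with a median of 0 and a count in 5 of 51 wells. In YFP1 it had a median of 4.20 and a highest well of 597 CPM, and in YFP2 a median of 68.9 and a highest well of 4180 CPM, with a count in 86 of 96 Renin-null wells. Of the 96 Renin-null wells, 54 were within the WT range and 42 were above its highest well. Summed over wells, Col3a1 was at 2.17 CPM over the WT wells and 534 CPM over the Renin-null wells, a log2 ratio of 6.80 (95% interval 6.66 to 6.94), 4.86 in YFP1 and 7.72 in YFP2. It was 7.11 without the highest well of each genotype.

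Type 1 collagen is built from Col1a1 and Col1a2 chains, and these were unequal in the cells. Col1a1 (chr11:94936224-94953042, plus strand) had a count in 16 of 51 WT wells and 79 of 96 Renin-null wells, with medians of 0 CPM in WT, 8.79 in YFP1 and 61.4 in YFP2 and highest wells of 50.5, 1722 and 2482 CPM. Its log2 ratio was 3.91 (3.84 to 3.99), 2.55 in YFP1 and 4.77 in YFP2. Col1a2 (chr6:4504814-4541544, plus strand) had a count in 36 of 51 WT wells and 79 of 96 Renin-null wells, with medians of 1.54, 0.623 and 59.3 CPM and highest wells of 1213, 4307 and 2926 CPM. It was within 2-fold of the median gene, at -0.05, with -0.34 in YFP1 and 0.57 in YFP2, but at 1.85 by the difference of mean log2(CPM + 1) over wells. Per kilobase of the longest coding transcript, the level of Col1a1 was 0.0383 times that of Col1a2 in WT cells and 0.595 times that in Renin-null cells, 0.284 times in YFP1 and 0.703 times in YFP2. At least 1 count of all of Col1a1, Col1a2 and Col3a1 was found in 3 of 51 WT wells, 27 of 48 YFP1 wells and 40 of 48 YFP2 wells. Across wells, the rank correlation of Col1a1 with Col1a2 was 0.02 in WT, 0.28 in YFP1 and 0.48 in YFP2. These correlations come from wells of 1 library each that also share their differences in depth.

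The remaining fibrillar chains rested on few wells. Col5a1 and Col5a2 are chains of type 5 collagen, which joins type 1 fibrils. Col5a1 had 1 count over the WT wells and 1003 over the Renin-null wells, of which well 85 of YFP2 held 97.0%, and its log2 ratio of 7.81 (5.33 to 13.12) was 0.24 without the highest wells. Col5a2 was at 8.60 CPM over the WT wells and 17.0 CPM over the Renin-null wells, a ratio of -0.17, with 83.2% of the WT counts in well 33, and 1.03 without the highest wells. Col27a1 was at 35.9 CPM over the WT wells and 2.01 CPM over the Renin-null wells. Well 47 held 99.5% of its WT counts, and the log2 ratio of -5.31 became 0.53 without the highest wells. Col2a1, Col5a3 and Col24a1 had 1 count each, all in Renin-null cells, Col11a2 had 1 count over the WT wells and 7 over the Renin-null wells, and Col11a1 had 0 and 82.

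A single well stood out for several collagen genes and carried vessel wall markers. Well 89 of YFP2 held the most Renin-null counts of Col1a1 (26.6%), Col1a2 (17.3%), Col3a1 (16.9%), Col8a1 (38.6%) and Col12a1 (28.0%). The smooth muscle and pericyte markers summed to 22867 CPM in it, the mesangial markers to 13774 CPM and the fibroblast markers to 0.928 CPM. Over all wells the 10 fibroblast markers summed to 14.8 CPM in WT, 175 in YFP1 and 209 in YFP2, with Ogn the most abundant in each library. Of these 10, 6 reached 1 CPM, 4 of which were at least 2-fold above the median gene (Dcn, Ogn, Pi16 and Serpinf1) and 1 below (Mfap5), against 38.1% and 34.3% of all genes. A single well held 99.3% of the Renin-null counts of Serpinf1, and without the highest wells Serpinf1 was at -1.2 and Pi16 at 0.94. Dcn, a defining fibroblast gene, was at 0.0253 CPM over the WT wells and 39.6 CPM over the Renin-null wells, Ogn was at 6.44 and 137 CPM, and Dpt was at 0 in every library. The 8 mesangial markers summed to 2476, 2679 and 4177 CPM, with 1 above and 2 below. The part of either marker list in the fibrillar ratios was not tested.

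**Figure D2:**
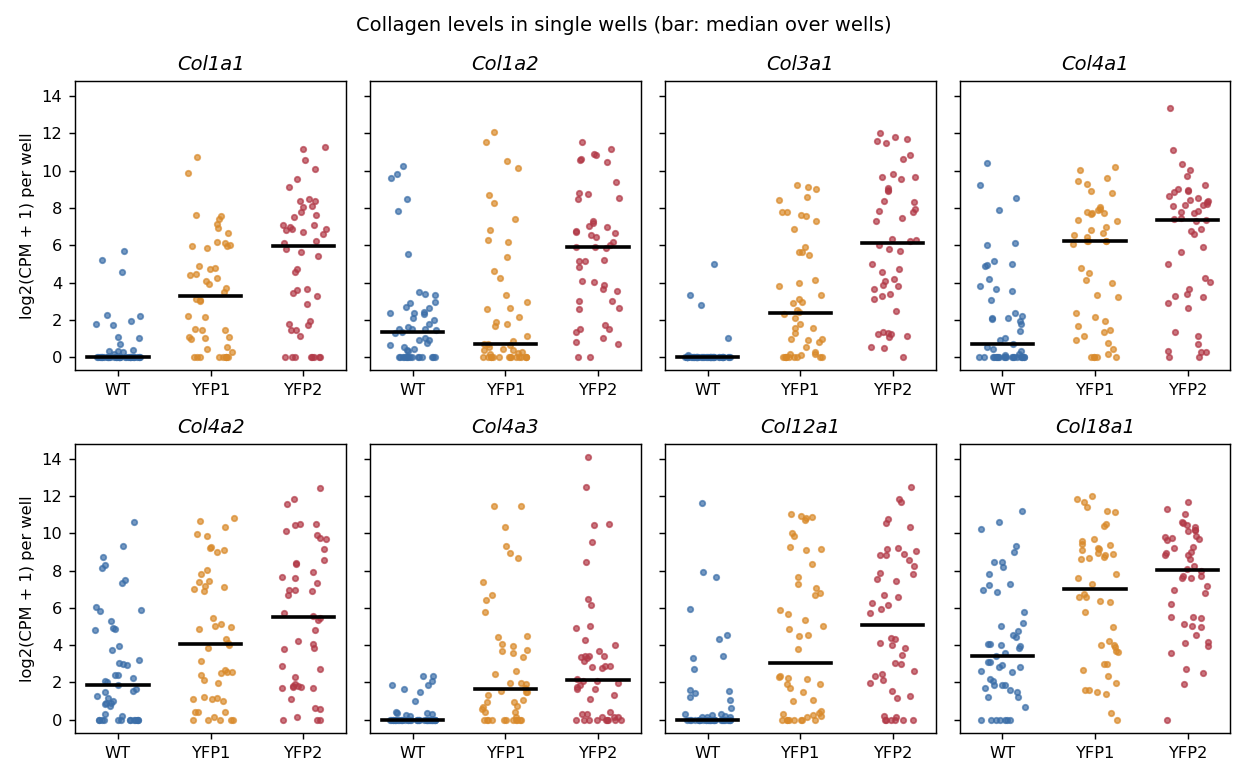
Level of 8 collagen genes in every well, as log2(CPM + 1) on the y axis, for WT (51 wells), YFP1 and YFP2 (48 wells each), with bars at the median over wells. Col1a1, Col3a1, Col4a3 and Col12a1 have a median of 0 in WT, whereas Col1a2 reaches high values in all libraries and has its lowest median in YFP1.

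The 6 basement membrane chains differed by gene pair. In the mouse genome the chains of type 4 collagen are encoded head to head in 3 pairs, Col4a1 with Col4a2 on chromosome 8, Col4a3 with Col4a4 on chromosome 1 and Col4a5 with Col4a6 on chromosome X. By the summed ratio over both libraries, both members of each pair lay on the same side of the 2-fold limits. Col4a1 and Col4a2 were within 2-fold of the median gene, Col4a3 and Col4a4 were above it and Col4a5 and Col4a6 were below it, so that 2 of 6 were higher, 2 lower and 2 within (38.1% and 34.3% of all genes were higher and lower), with a median of 0.31. By the difference of mean log2(CPM + 1) over wells, Col4a4, Col4a5 and Col4a6 lay within 2-fold of the median gene, at 0.72, -0.75 and -0.41. Col4a3 stayed above by that measure, at 2.47, so its pair split. In YFP2 alone Col4a1 was past the limit, at 1.11, and Col4a2 was not, at 0.83. The sequence at the starts is shown because the members of a pair begin close to each other, on opposite strands. The annotated first exons of Col4a1 and Col4a2 share 22 bases, at chr8:11312805-11312826, where reads of the genes cannot be told apart without strand, whereas 71 bases lie between the first bases of Col4a4 and Col4a3, at chr1:82586850-82586920, and 1308 between those of Col4a6 and Col4a5. The stretches below are from RefSeq on GRCm38.p6, with a GC box (GGGCGG) and a CCAAT box (CCAAT) of either strand in capitals. The Col4a1 and Col4a2 stretch is read on the plus strand, that between Col4a4 and Col4a3 on the minus strand, and those of Col4a6 (chrX:141474077-141474326, minus strand) and Col4a5 (chrX:141475169-141475418, plus strand) are the 250 bases before the RefSeq start.
Col4a1 and Col4a2, shared first bases: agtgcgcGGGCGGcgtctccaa
Between Col4a4 and Col4a3: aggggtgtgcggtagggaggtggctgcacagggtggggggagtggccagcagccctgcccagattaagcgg
Col4a6, upstream: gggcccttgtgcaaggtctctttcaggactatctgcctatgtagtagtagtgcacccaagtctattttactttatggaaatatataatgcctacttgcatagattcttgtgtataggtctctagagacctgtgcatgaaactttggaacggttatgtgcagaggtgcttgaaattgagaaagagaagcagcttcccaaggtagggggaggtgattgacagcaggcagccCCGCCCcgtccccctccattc
Col4a5, upstream: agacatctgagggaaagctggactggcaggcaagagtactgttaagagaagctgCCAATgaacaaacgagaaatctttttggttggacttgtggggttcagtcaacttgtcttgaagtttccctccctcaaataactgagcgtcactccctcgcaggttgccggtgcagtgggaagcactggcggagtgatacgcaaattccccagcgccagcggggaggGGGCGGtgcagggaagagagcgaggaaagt
The 22 shared bases of Col4a1 and Col4a2 hold a GC box and the stretch between Col4a4 and Col4a3 holds neither motif. RefSeq promoter windows (250 bases before to 50 bases after the start) were matched for 35 of the 44 collagen genes, in 38 windows. A collagen gene was counted when any of its windows held the motif, whereas the background counts windows, so the shares are not in the same unit. A GC box on either strand was found in 22 of the 35 (62.9%, against 35.7% of 32851 windows of all genes), a CCAAT box in 13 (37.1% against 37.4%), TATAAA in 5 (14.3% against 13.6%) and a CArG box, the motif known from smooth muscle genes, in 1, Col6a4 (2.86% against 1.63%). These matches describe the letters in the windows only.

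Col4a3 (chr1:82586921-82722059, plus strand) had the largest ratio of the collagen genes with a count in both genotypes. In WT it had 40 counts over 14 of 51 wells, with no well at 10 counts and a highest well of 4.16 CPM. In Renin-null cells it had 335275 counts over 76 of 96 wells, 49 of them with at least 10 counts, with medians of 2.09 CPM in YFP1 and 3.40 CPM in YFP2 and highest wells of 2840 and 17596 CPM. Of the 96 Renin-null wells, 53 were within the WT range and 43 were above it, 30 of them at 10 CPM or more. Summed over wells, its level was 0.202 CPM in WT against 841 CPM in Renin-null cells, with a log2 ratio of 10.87 (10.43 to 11.36), 10.67 in YFP1 and 11.46 in YFP2, and 9.16 without the highest wells. By the difference of mean log2(CPM + 1) over wells it was 2.47. Col4a4 (chr1:82448423-82586849, minus strand) had a count in 7 of 51 WT wells and 40 of 96 Renin-null wells, with medians of 0 CPM in WT, 0 in YFP1 and 0.412 in YFP2 and highest wells of 271, 1242 and 2164 CPM. Its log2 ratio was 2.74 (2.66 to 2.83), 1.27 in YFP1 and 3.62 in YFP2.

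Podocyte markers moved with Col4a3 and Col4a4 in 1 well. Well 59 of YFP2 held 53.9% of the Renin-null counts of Col4a3 and 49.3% of those of Col4a4. The podocyte markers summed to 24862 CPM in it and the smooth muscle and pericyte markers to 79.3 CPM. Over all wells the 10 podocyte markers summed to 116 CPM in WT, 229 in YFP1 and 1618 in YFP2, with Synpo the most abundant in WT and YFP1 and Cdkn1c in YFP2, and Podxl was at 0 in WT. Of the 10, 9 were at least 2-fold above the median gene, also without their highest wells, and none was below, with a median of 4.73 (38.1% and 34.3% of all genes). Other wells high in Col4a3 differed in their markers. Well 75 of YFP2 had 5740 CPM of Col4a3 with 3353 CPM of podocyte markers and 36887 CPM of smooth muscle markers. Wells 25 and 1 of YFP1 had 2840 and 2828 CPM of Col4a3 with 2.21 and 141 CPM of podocyte markers and 39910 and 45851 CPM of smooth muscle markers, and had 0 and 1 counts of Col4a4. Well 51 of YFP2, led by collecting duct markers, had 1387 CPM of Col4a3 and 43.9 CPM of smooth muscle markers. Well 23 of YFP1, led by loop and distal tubule markers, had 1317 and 46.8 CPM. Over all wells the proximal tubule markers summed to 62.5 CPM in WT, 1192 in YFP1 and 792 in YFP2. The 11 Renin-null wells led by markers of another cell type held 63.7% of the counts of Col4a3 and 54.3% of those of Col4a4. Without them and the 1 such WT well the log2 ratio was 10.00 for Col4a3 and 2.05 for Col4a4, so both were at least 2-fold above the median gene in the remaining wells. The remaining wells still included well 75, with its podocyte markers and 14.4% of all Renin-null counts of Col4a3. They also included wells 1 and 25, with 12.2% and 7.67%. A ratio that also leaves out well 75 is not given. Of the 85 remaining Renin-null wells, 42 had at least 10 counts of Col4a3 and 10 had at least 10 counts of Col4a4. Per kilobase, the level of Col4a3 was 11.5 times that of Col4a4 and 67.7 times that of Col4a5 in Renin-null cells. The libraries differed, with 27.7 and 23.5 times in YFP1 and 9.41 and 236 times in YFP2. All of Col4a3, Col4a4 and Col4a5 had a count in 2 of 51 WT wells and 12 of 96 Renin-null wells.

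Col4a1 (chr8:11198423-11312826, minus strand) and Col4a2 (chr8:11312805-11449287, plus strand) were present in both genotypes. Per kilobase, the level of Col4a1 was 0.95 times that of Col4a2 in WT and 0.928 times in Renin-null cells, but 0.427 times in YFP1 and 1.15 times in YFP2. Col4a1 had medians of 0.655 CPM in WT, 73.4 in YFP1 and 165 in YFP2 and highest wells of 1362, 1179 and 10671 CPM. Its summed log2 ratio was 0.29 (0.27 to 0.31), with -0.86 in YFP1 and 1.11 in YFP2, and -0.49 without the highest wells, well 74 of YFP2 holding 40.1% of the Renin-null counts. Col4a2 had medians of 2.62, 15.7 and 44.5 CPM and highest wells of 1566, 1789 and 5469 CPM, with a log2 ratio of 0.32 (0.31 to 0.34), 0.30 in YFP1 and 0.83 in YFP2, and -0.40 without the highest wells. For both genes the summed level was set by a few wells, while the typical well was higher in Renin-null than in WT cells. The mean over wells of log2(CPM + 1), relative to the median gene, differed by 3.22 for Col4a1 and 1.96 for Col4a2. A count of both was found in 25 of 51 WT wells and 83 of 96 Renin-null wells, and their rank correlation across wells was 0.28 in WT, 0.17 in YFP1 and 0.32 in YFP2, which is weak.

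Col4a5 (chrX:141475385-141689234, plus strand) and Col4a6 (chrX:141165403-141474076, minus strand) were lower in Renin-null cells, but 1 WT well held nearly all of their WT counts. Col4a5 was at 77.3 CPM over the WT wells and 9.48 CPM over the Renin-null wells, a log2 ratio of -4.18, and well 5 of WT held 93.7% of its WT counts. Col4a6 was at 100.2 CPM and 20.6 CPM, a log2 ratio of -3.43, and the same well held 97.7%. Without the highest wells the ratios were -1.83 and -1.18. A count of Col4a5 was found in 16 of 51 WT wells and 21 of 96 Renin-null wells, and a count of Col4a6 in 13 and 22. The 4 WT wells with at least 10 counts of Col4a5 were the 4 with at least 10 counts of Col4a6, whereas in Renin-null cells 7 wells had at least 10 counts of Col4a5, 4 had at least 10 counts of Col4a6 and none had both. Well 5 of WT had 41083 CPM of smooth muscle and pericyte markers and 119 CPM of podocyte markers.

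**Figure D3:**
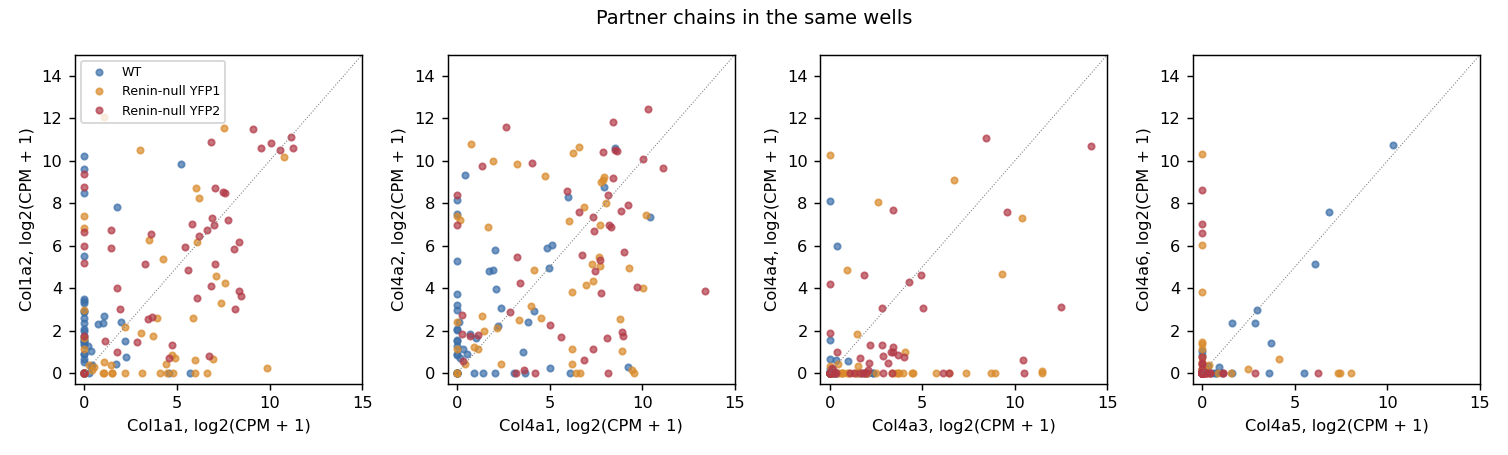
Levels of partner chains in the same wells, as log2(CPM + 1) on both axes, for Col1a1 and Col1a2, Col4a1 and Col4a2, Col4a3 and Col4a4, and Col4a5 and Col4a6; each point is a well and the dotted line marks equal CPM. Col4a5 and Col4a6 lie near the line in the WT wells where both are high and along the axes in Renin-null wells, and many Renin-null wells have Col4a3 without Col4a4.

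Of the beaded filament chains, Col6a3 was the most widely found and Col6a5 was higher in Renin-null cells. Col6a1, Col6a2 and Col6a3 together make the common form of type 6 collagen, and Col6a5 can stand in for Col6a3. Col6a3 (chr1:90765923-90843971, minus strand) had a count in 14 of 51 WT wells and 51 of 96 Renin-null wells, with medians of 0 CPM in WT, 0 in YFP1 and 0.39 in YFP2 and highest wells of 929, 2868 and 5742 CPM. Its log2 ratio was 0.95 (0.92 to 0.98), 0.85 in YFP1 and 1.49 in YFP2, just inside the 2-fold limit. Well 33 held 90.8% of its WT counts, and the ratio was 2.43 without the highest wells, past the limit, and 0.23 as a ratio of means over wells of CPM. Col6a5 (chr9:105856078-105960643, minus strand) had a count in 2 of 51 WT wells and 45 of 96 Renin-null wells, with highest wells of 23.4 CPM in WT, 255 in YFP1 and 4967 in YFP2. Its log2 ratio was 4.82 (4.65 to 4.99), 1.30 in YFP1 and 5.82 in YFP2, 8.36 without the highest wells and 1.16 by the difference of mean log2(CPM + 1). Well 57 of YFP2 held 69.6% of its Renin-null counts and well 10 held 98.6% of its WT counts. Col6a1 had no count in WT and a count in 18 of 96 Renin-null wells, and of its 14039 counts there well 87 of YFP2 held 99.5%. Against a floor of 3 counts over the WT wells its log2 ratio was at least 10.03, at least 0.50 in YFP1 and at least 11.08 in YFP2. It was at least 1.58 without the highest well, and 0.05 by the difference of mean log2(CPM + 1), which ends the call. Well 87 had 12262 CPM of smooth muscle and pericyte markers, 4589 CPM of podocyte markers and 2020 CPM of endothelial markers. Col6a2 had 10 counts over the WT wells and 40 over the Renin-null wells, Col6a4 had 0 and 42, and Col6a6 had 11 and 328. All of Col6a1, Col6a2 and Col6a3 had a count in 0 of 51 WT wells and 2 of 96 Renin-null wells.

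Among the other types, Col18a1 was the most widely found collagen gene and Col12a1 was higher in Renin-null cells. Of these 21 genes 10 reached 1 CPM, 5 of which were at least 2-fold above and 2 at least 2-fold below the median gene (38.1% and 34.3% of all genes), with a median of 0.64. Col18a1 (chr10:77052178-77166548, minus strand), a basement membrane collagen that releases endostatin, had a count in 44 of 51 WT wells and 94 of 96 Renin-null wells. Its medians were 9.56 CPM in WT, 132 in YFP1 and 260 in YFP2, with highest wells of 2342, 4167 and 3343 CPM. Its summed ratio was within 2-fold of the median gene, at -0.30, with 0.29 in YFP1 and -0.18 in YFP2, although the mean of log2(CPM + 1) differed by 2.75. Col12a1 (chr9:79598991-79718831, minus strand), which coats the surface of type 1 fibrils, had a count in 22 of 51 WT wells and 82 of 96 Renin-null wells. It had medians of 0 CPM in WT, 8.36 in YFP1 and 36.2 in YFP2, with highest wells of 3207, 2109 and 5730 CPM. Its log2 ratio was 1.45 (1.43 to 1.48), 1.46 in YFP1 and 1.94 in YFP2, and 0.48 as a ratio of means over wells of CPM, which ends the call. The WT counts of Col12a1 lay mostly in well 31 (66.2%), a well with 201 CPM of smooth muscle and pericyte markers and 72.9% mitochondrial counts. Across wells Col12a1 was correlated by rank with Col1a1, at 0.58 in YFP1, 0.41 in YFP2 and 0.07 in WT, again as a description of wells that share their library.

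Col8a1, a chain of the network-forming type 8 collagen of vessel walls, did not pass the 2-fold limit, at 29.0 CPM over the WT wells and 59.3 CPM over the Renin-null wells and a log2 ratio of -0.12. Well 28 held 94.3% of its WT counts, and without the highest wells the ratio was 2.40, past the limit. It had a count in 14 of 51 WT wells and 48 of 96 Renin-null wells. Col22a1 and Col26a1 were higher by the stricter rule at low levels. Col22a1, known from tissue junctions, was at 0.278 CPM over the WT wells and 2.46 CPM over the Renin-null wells, with a log2 ratio of 2.00, and Col26a1 was at 2.50 and 14.5 CPM, with a ratio of 1.39. By the difference of mean log2(CPM + 1) they were within 2-fold, at -0.10 and 0.20, and Col22a1 was at -1.01 as a ratio of means over wells of CPM. Col13a1, a transmembrane collagen, was at 4.30 and 8.76 CPM with a ratio of -0.12, 0.92 in YFP1 and -0.60 in YFP2. Wells decided the rest. Col23a1 had 3 counts over the WT wells and 2815 over the Renin-null wells, 99.5% of them in well 39 of YFP1, and Col20a1 had 1 and 617, 99.7% of them in well 19 of YFP1, a well with 15779 CPM of proximal tubule markers. Their log2 ratios were 7.72 (6.17 to 9.99) and 7.11 (4.63 to 12.42). Col9a1 had 359 counts in WT, 99.7% of them in well 33, and 1 count in Renin-null cells, a ratio of -10.65 (-15.95 to -8.16). Col19a1 was at 8.49 and 7.03 CPM with a ratio of -1.42, -5.72 in YFP1 alone, -0.40 in YFP2 alone and -1.98 without the highest wells. Of the 11 genes under 1 CPM, Col25a1 had 110 counts over the WT wells and 103 over the Renin-null wells, Col9a2 had no count in any well, and the other 9 had at most 6 counts in WT and at most 22 in Renin-null cells.

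**Figure D4:**
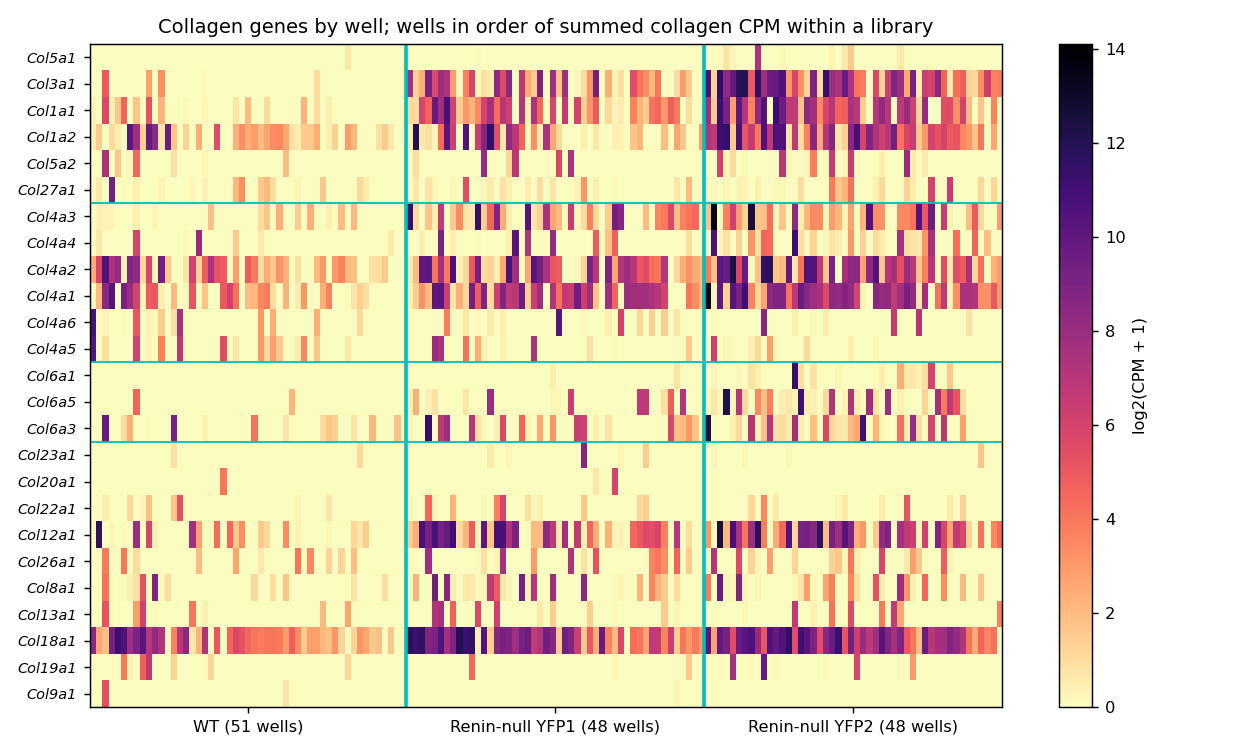
Level of the 25 collagen genes of at least 1 CPM (rows, by class) in all 147 wells (columns, ordered by summed collagen CPM within WT, YFP1 and YFP2), as log2(CPM + 1) by colour. Col18a1, Col4a1, Col4a2, Col1a1, Col3a1 and Col12a1 run through most Renin-null wells, whereas genes such as Col6a1, Col9a1 and Col23a1 appear as single dark cells.

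Collagen counts were spread over more genes in a Renin-null well than in a WT well. The summed collagen level of a well ranged from 0 to 3341 CPM in WT (median 59), from 20.5 to 6674 CPM in YFP1 (median 1428) and from 64 to 19794 CPM in YFP2 (median 2675), so that the genotypes overlapped. A WT well held a count of 6 collagen genes in the median and a Renin-null well of 13. Deeper wells held more collagen genes, with rank correlations between depth and number of 0.69 in WT, 0.74 in YFP1 and 0.71 in YFP2, so wells were also thinned to 62000 counts each, which left 49 WT and 83 Renin-null wells. The medians were then 2 and 6 collagen genes. The thinned totals still held mitochondrial and Ren1 counts, so the thinned wells were not equal in their other counts. The summed collagen CPM was higher in deeper wells, with rank correlations of 0.49 in WT, 0.38 in YFP1 and 0.59 in YFP2. The part of depth in the difference of summed CPM between genotypes was not tested. The summed collagen CPM was lower in wells of higher mitochondrial share, with rank correlations of -0.54 in WT, -0.61 in YFP1 and -0.53 in YFP2. The part of the mitochondrial share in the difference between genotypes was not tested, and in the 15 WT and 57 Renin-null wells that passed limits on counts, genes and mitochondrial share, 12 collagen genes were at least 2-fold above and 5 at least 2-fold below the median gene, where 38.9% of all genes were above and 35.7% below. The collagen gene of highest CPM in a well was most often Col18a1, in 19 of 51 WT wells and 24 of 96 Renin-null wells. After it came Col1a2 (7 wells) and Col4a2 (6 wells) in WT, and Col4a1 (14 wells), Col12a1 and Col4a2 (12 wells each) and Col4a3 (11 wells) in Renin-null cells.

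In wells thinned to the same total, mitochondrial counts included, the share with a count differed by gene. The intervals below are binomial over wells and describe the wells counted, since wells of a genotype are not replicates of it. Col3a1 was found in 4.08% of thinned WT wells (95% Clopper-Pearson interval 0.498 to 14.0) and 61.4% of thinned Renin-null wells (50.1 to 71.9). Col1a1 was found in 8.16% (2.27 to 19.6) and 60.2% (48.9 to 70.8), and Col12a1 in 10.2% (3.40 to 22.2) and 61.4%. Col4a3 was found in 0 of 49 WT wells, with an upper bound of 7.25%, and in 37.3% of Renin-null wells (27.0 to 48.7). Col4a1 was found in 26.5% (14.9 to 41.1) and 74.7% (64 to 83.6), and Col18a1 in 46.9% (32.5 to 61.7) and 79.5% (69.2 to 87.6). For Col4a2 the shares were closer, at 38.8% (25.2 to 53.8) and 60.2% (48.9 to 70.8). When mitochondrial genes and Ren1 were left out and 35000 of the remaining counts were kept per well, Col3a1 was found in 2.04% of WT and 59% of Renin-null wells, Col1a1 in 6.12% and 60.2%, Col12a1 in 14.3% and 60.2%, Col4a3 in 4.08% and 31.3%, and Col4a1 in 30.6% and 73.5%. Col18a1 was then found in 57.1% and 80.7%, and Col1a2 in 28.6% and 49.4%, against 18.4% and 47.0% with all genes.

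**Figure D5:**
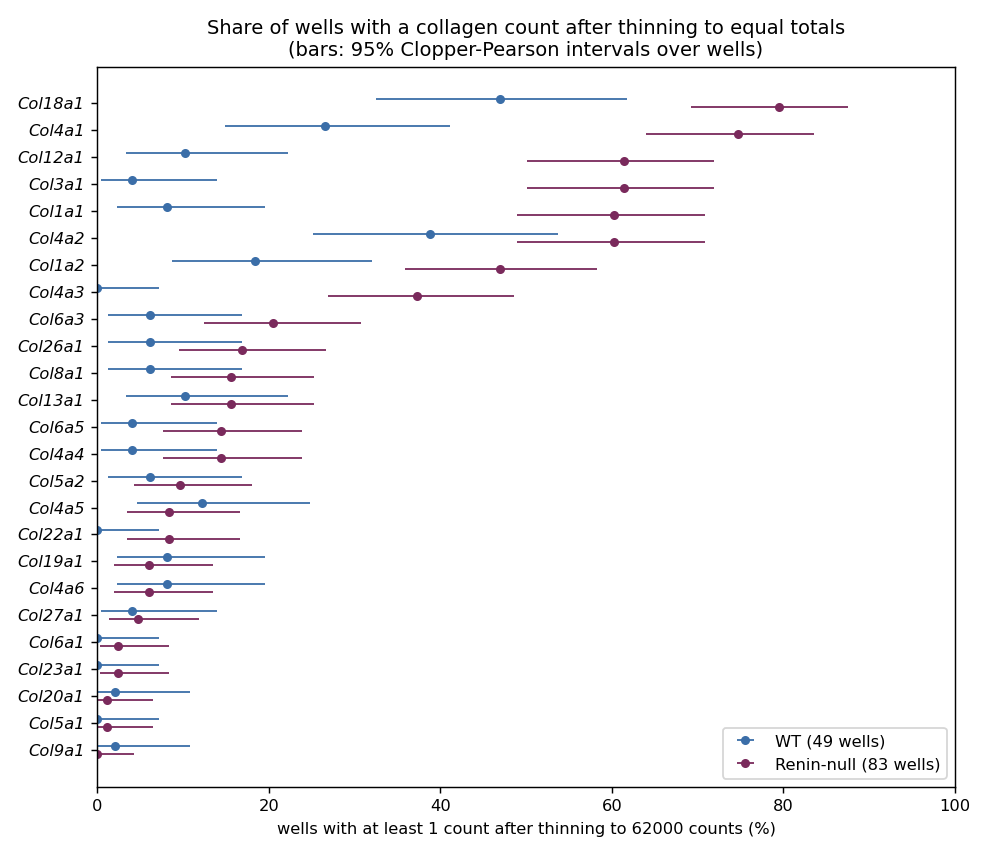
Share of wells with at least 1 count after thinning to 62000 counts (x axis, %) for the 25 collagen genes, in 49 WT and 83 Renin-null wells; bars are 95% Clopper-Pearson intervals over wells, which are not replicates of a genotype. Col3a1 is found in 4.08% of WT and 61.4% of Renin-null wells and Col1a1 in 8.16% and 60.2%, and Col18a1 is the gene found in most wells of both.

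The genes that modify, process and bind collagen lay on both sides of the median gene. Of 20 modifying and folding genes in the tables, 19 reached 1 CPM, and 6 were at least 2-fold above and 6 at least 2-fold below the median gene, with a median of -0.61. Plod3 (0.0960 to 47.6 CPM, log2 ratio 7.81) and Plod2 (1.66 to 26.5 CPM, 2.85), both lysyl hydroxylases, were higher, as was Colgalt2, which adds galactose to collagen and had no count in WT against 17.5 CPM (at least 9.02), with 98.6% of the counts in 1 YFP2 well, none in YFP1 and a ratio of 1.91 without that well. P3h2, a prolyl 3-hydroxylase, was lower (337 to 196 CPM, -1.93). Mia3, which helps load collagen for export from the endoplasmic reticulum, was also lower (157 to 70.3 CPM, -2.31). A single well held 79.3% of the WT counts of Mia3. Plod1 was lower too (67.3 to 19.3 CPM, -2.95), at -7.39 in YFP1 and -1.92 in YFP2. Single wells held 70.7% of the WT and 80.6% of the Renin-null counts of Plod1. Without the highest wells Mia3 was at -1.65 and Plod1 at -4.46. Serpinh1, the collagen chaperone, was within 2-fold, at -0.18, with 24.2 CPM over the WT wells and 47.2 CPM over the Renin-null wells. Of 16 processing and crosslinking genes 13 reached 1 CPM, and 7 were above and 2 below, with a median of 1.63. Pcolce, which enhances removal of the procollagen C-terminus, was higher, at 0.581 and 56.7 CPM (5.46, with 5.76 in YFP1 and 5.79 in YFP2). Adamts2, which removes the N-terminus, was at 7.26 and 49.8 CPM (1.63, with 1.36 and 2.24), and the protease Mmp14 at 5.52 and 42.4 CPM (1.79, with 3.06 and 0.76, within 2-fold in YFP2). Pxdn, which crosslinks type 4 collagen, was lower, at 109 and 25.0 CPM (-3.28, and -2.15 without the highest wells). A single well held 92.5% of the WT counts of Pxdn. The lysyl oxidase Loxl2 was also lower, at 2.86 and 1.85 CPM (-1.77). Of 10 receptor genes 7 reached 1 CPM, none of which was above and 3 of which were below. Ddr2, the receptor for fibrillar collagen, was at 253 CPM over the WT wells and 41.0 CPM over the Renin-null wells (-3.77), Itga1 at 123 and 65.6 CPM (-2.06, but -0.92 in YFP1 and 0.89 without the highest wells) and Itga2 at 2.57 and 0.218 CPM (-4.71). Itgb1, the shared beta chain of the collagen-binding integrins, was at 202 and 469 CPM, 0.07 relative to the median gene. These counts stand against the same 38.1% above and 34.3% below of all genes.

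For Col3a1, whose ratio held in both libraries and without its highest wells, the 250 bases before the RefSeq start (chr1:45311288-45311537, plus strand, GRCm38.p6) are given with the TATAAA letters in capitals. The other genes above by the stricter rule with an entry in the RefSeq windows were Col4a4 and Col6a5, neither of which held TATAAA.
Col3a1, upstream: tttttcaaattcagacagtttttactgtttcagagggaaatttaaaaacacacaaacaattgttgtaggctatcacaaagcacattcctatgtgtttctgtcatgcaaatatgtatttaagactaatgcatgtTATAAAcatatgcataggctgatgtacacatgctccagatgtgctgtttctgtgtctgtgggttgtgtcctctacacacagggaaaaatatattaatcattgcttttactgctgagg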

How the data were processed

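The deposited values are expected counts per gene and well, which the authors made by trimming reads with Trimmomatic 0.39 after FastQC 0.11.5, quantifying them with Salmon 0.11.2 on GRCm38.p6 (mm10) and summing transcripts to genes with the lengthScaledTPM option of tximport, so that values keep each well's depth and grow with gene length, and only differences in transcript length between wells are corrected. They were rounded to whole counts and summed over the wells of a genotype, to 197904443 counts for WT and 398812805 for Renin-null cells. Sums were scaled to CPM, and the log2 of Renin-null CPM divided by WT CPM was taken, minus its median over genes with at least 1 CPM in either genotype. A genotype without counts was given 3 counts in all, and genes with 3 counts or fewer in both genotypes got no ratio. A gene was called at 2-fold from the median gene. Wells are not replicates, so no model was fitted and no p-value is given. Intervals (95%) are exact conditional intervals for ratios and Clopper-Pearson intervals for shares of wells. The first cover counting error only, since reads carry no molecular identifiers, and neither covers the spread between mice. The ratio script was tested on simulated data. No doublets were called or removed. Gene positions are from GENCODE M21 on GRCm38 and promoter windows from RefSeq, where 9 collagen genes have no entry used here.

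The collagen genes, the pathway lists and the marker lists were chosen with earlier results of these data known. All collagen genes are accounted for, and those described in full are, per class, up to 6 (8 for the other types) with the largest CPM in either genotype plus their partner chains. Of the pathway lists the genes named are those past 2-fold with the largest CPM, up to 3 per direction. The level of 1 marker gene is not reported here. Serpinh1, Itgb1 and the genes of the stricter rule were named after their values were seen. The alternatives tried were the mean over wells, each Renin-null library alone, the highest wells left out, limits on wells, near-identical wells counted once, thinning, other minimum levels, TMM factors (edgeR 4.0.16), no centring and CPM without mitochondrial genes. The rule that joins libraries and the highest well, the one without wells led by other markers and the thinning without mitochondrial genes and Ren1 were added after seeing the data. Calculations used Python 3.11.15, pandas 2.3.3 and scipy 1.17.1.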

Additional observations from a re-analysis of the deposited data

How the results depend on the processing

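The count of collagen genes at least 2-fold above the median gene was 12 and ran from 8 by the rule that joins both libraries and the highest well (21.5% of all genes) to 18 without centring (52.3%). By the difference of mean log2(CPM + 1) it was 9, where 7.87% of all genes were above. The count below was 5 (34.3% of all genes), and it was 0 with the difference of mean log2(CPM + 1) (3.96%), 3 without the highest well of each gene (35.9%), 3 at a minimum of 10 CPM (32.9%) and 2 by the joint rule (17.7%). The median log2 ratio of the collagen genes was 0.95, and it was 0.29 with the mean over wells of CPM, 0.20 with the difference of mean log2(CPM + 1), 0.85 in YFP1 alone, 1.11 in YFP2 alone, 1.02 without the highest wells, 1.02 with near-identical wells counted once, 1.05 without wells led by other markers, 0.66 after thinning and 0.30 with no minimum. Without centring it was 2.10, with TMM factors 1.39 and with CPM without mitochondrial genes 1.93, where the median of all genes moved to 1.15, 0.44 and 0.99. Col1a1, Col3a1, Col4a3 and Col6a5 stayed at least 2-fold above under all 15 alternatives. Of the 17 genes past 2-fold, 6 changed sign: Col5a1 was -0.15 by the difference of means and -0.64 thinned, Col19a1 was 0.014 by mean CPM and 1.63 thinned, Col20a1 was -0.79 by mean CPM and -0.26 by the difference of means, Col22a1 was -1.01 and -0.10 by the same alternatives, Col23a1 was -0.15 by the difference of means and -0.11 in YFP2 alone, and Col27a1 was 0.53 without the highest wells. Of the 8 genes within 2-fold, 7 also changed sign under at least 1 alternative (Col1a2, Col4a1, Col4a2, Col5a2, Col8a1, Col13a1 and Col18a1). The cause was not tested. Genotype, capture, library and mice cannot be told apart, and the median WT well was shallower than the median Renin-null well. No paired analysis was possible because well numbers are only names and no label links a WT well to a Renin-null well.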
